A study of Mus musculus with 5 samples.

Results

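The 38 genes described here code for proteins that make ribosomes in the nucleolus. They were named by their role in that process, though with earlier results of these data known. Where a gene had several probe sets, the one of highest mean over the 5 arrays was read. Of the 38, 37 were measured by a probe set with 1 gene symbol, out of 19938 genes on the array, and *Noc2l* was not analysed here. By role, 7 belong to the small nucleolar RNA-protein particles (snoRNPs), 6 to the nucleolar scaffold and its regulators, 4 to RNA polymerase I, 12 to the maturation of the small subunit and 8 to that of the large subunit. Expression was measured in 6DT1 cells, a metastatic mouse mammary carcinoma line, on 5 Affymetrix Mouse Gene 1.0 ST arrays, 1 for each line. The *Arid4b* knockdown lines, H3 and H4, carried lentiviral hairpins against *Arid4b*, a subunit of the mSIN3A histone deacetylase complex. The control lines were H5, whose hairpin against *Arid4b* left the protein at its usual amount, a line with a scrambled hairpin, and untransduced cells. All but the untransduced cells had been selected in puromycin, and the stable lines were pooled clones. ARID4B densitometry in the labels was 0.19 in H3 and 0.15 in H4, and in the controls it was 1.02 in H5, 1.00 with the scrambled hairpin and 1.09 without transduction.

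Ribosome production starts when RNA polymerase I copies the ribosomal RNA genes in the nucleolus. Box C/D snoRNPs then methylate the transcript, box H/ACA snoRNPs convert uridines to pseudouridines, and large sets of assembly factors fold, cut and export the particles that become the small and the large subunit. The pathway runs at a high rate in growing and tumour cells, and the transcription factor MYC, which binds the E-box CACGTG, is known to drive many of its genes.

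*Arid4b* mRNA was at 6.88 and 7.35 in knockdown lines H3 and H4, compared with 8.24 in H5, 8.34 in scrambled and 8.36 in untransduced cells, all as log2 expression (log2 fold change -1.20 ± 0.15 SE, limma adjusted p = 0.217). Both knockdown lines thus lay below all controls, the direction that their labels give. The H3 array had the highest median of all probe sets (6.35, against 6.24 to 6.25 on the others) and the narrowest spread (SD 2.25, against 2.29 to 2.30). Of the 7 epithelial markers, *Krt8* was at 11.81 to 12.26 and *Krt18* at 11.57 to 11.71. *Cldn3* (7.21 to 7.73) and *Cldn4* (6.55 to 6.87) also lay above the array medians. *Epcam* (5.61 to 5.75), *Cdh1* (6.05 to 6.16) and *Cldn7* (5.33 to 5.88) lay near or below those medians. Of 24 markers of epithelial, leukocyte, fibroblast and endothelial cells, 1, *Csf1r*, passed the test described next, at 5.54 in H3 and 5.40 in H4, against 5.26 to 5.30 in the controls. In cultured cells as in any bulk sample, fewer cells that express a gene and less of its RNA per cell cannot be told apart.

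Few of the ribosome biogenesis genes passed the test between knockdown and control lines. At an unadjusted limma p under 0.05, the threshold of the study, 1 of the 37 was lower in the knockdown lines (*Imp4*), 1 was higher (*Polr1c*) and 35 did not pass. Over all genes, 7.61% were lower and 4.34% higher at that threshold, against 2.7% in each direction for the 37 genes. Of all those calls 36.3% were higher, against 20% after subtracting array medians and 49.4% after another quantile normalization. After Benjamini-Hochberg adjustment over all genes, 0 of the 37 passed, as did 0% of all genes, and the smallest adjusted p among the 37 was 0.353. The 2 knockdown lines lay below all 3 controls for 3 genes (*Dkc1*, *Noc4l* and *Imp4*, 8.11% of the 37, against 13.5% of all genes) and above all 3 for 2 genes (*Nop10* and *Polr1c*, 5.41%, against 13.9%). For the other 32 genes the groups overlapped. These shares were not counted among genes of the same expression level. Leaving out 1 line changed the counts past the threshold: 0 were lower and 3 higher without H3, 2 lower and 0 higher without H4, 4 lower and 2 higher without the scrambled line, and 0 in either direction without H5 or without untransduced cells. The shares of all genes moved as well, to 9.06% lower and 6.87% higher without H3, 9.96% and 24.6% without H4, 8% and 3.52% without the scrambled line, 3.89% and 2.05% without H5, and 5.07% and 2.55% without untransduced cells.

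Fold changes were small. On the log2 scale they ran between -0.41 and 0.39, with 29 negative and 8 positive and a median of -0.09, against a median of 0.03 over all genes. Among the 6595 genes whose mean log2 expression fell in the same range as that of the 37 (8.08 to 11.75), the median was -0.07, 16.3% were lower and 5.97% higher. The 95% interval of the fold change excluded a 2-fold difference in either direction for 37 of 37 genes and a 1.5-fold difference for 23 of them. Over all 19938 genes it did so for 19044 at 2-fold and for 16514 at 1.5-fold. The median distance from the fold change to the end of that interval was 0.35 for the 37 genes and 0.21 for all genes, on the log2 scale. With 1 array a line, the p-values rest on differences between lines, and technical and biological spread cannot be told apart.

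**Figure D1:**
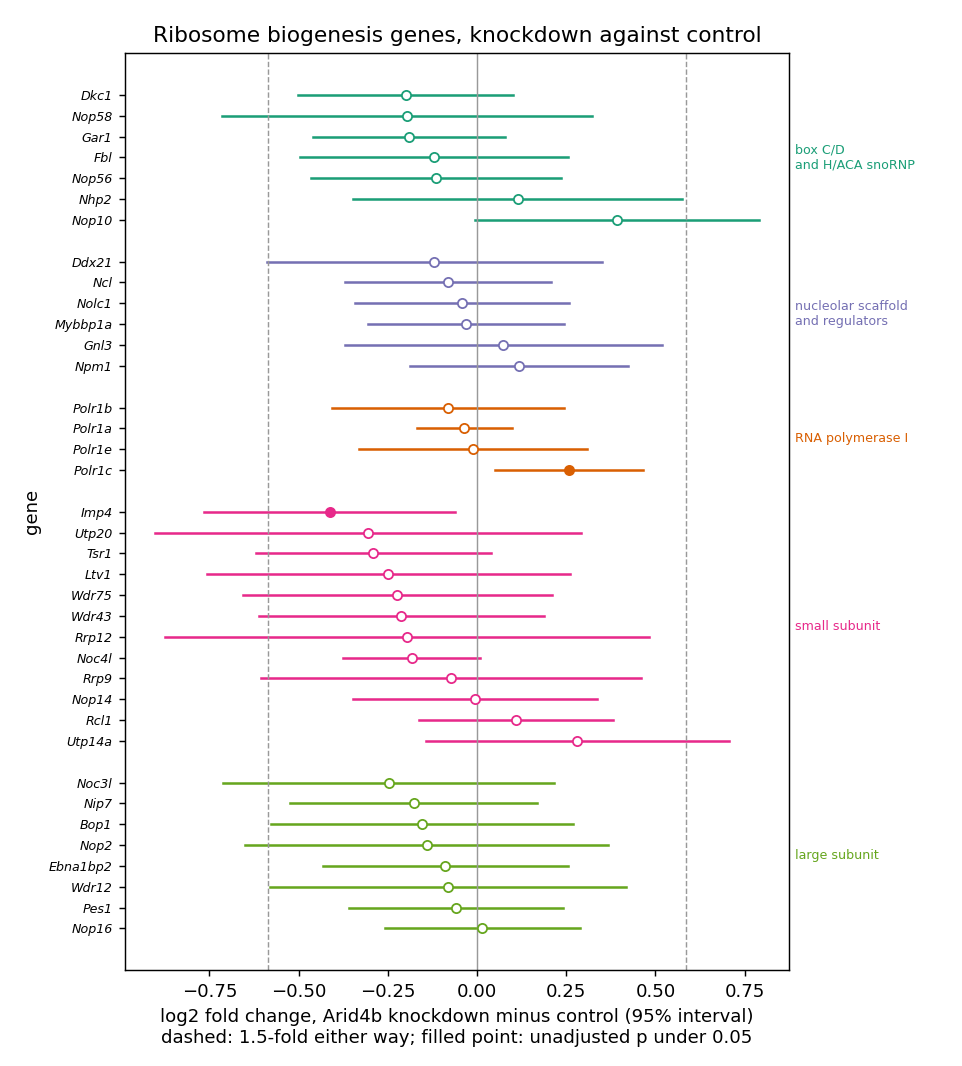
Log2 fold change of each of the 37 genes, *Arid4b* knockdown lines (n = 2) minus control lines (n = 3), with the 95% interval from limma, by role. Dashed lines stand at 1.5-fold either way; filled points mark the 2 genes past the unadjusted threshold, *Imp4* at -0.41 and *Polr1c* at 0.26.

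The snoRNP proteins had fold changes of both signs. Of the 7, 0 passed the test, and their median log2 fold change was -0.12. *Nop10*, a small core protein of the box H/ACA particle and of telomerase, had the highest fold change of all 37 genes. It had log2 expression of 10.56 (H3) and 10.91 (H4), against 10.29 (H5), 10.53 (scrambled) and 10.21 (untransduced). Both knockdown lines were above every control, although H3 and the scrambled line were nearly level (log2 fold change 0.39 ± 0.15 SE, adjusted p = 0.424).

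*Dkc1*, the pseudouridine synthase of the same particle, lay the other way. It was at 9.89 in H3 and 10.01 in H4, and in the controls at 10.10 in H5, 10.02 with the scrambled hairpin and 10.34 without transduction. H4 and the scrambled line were nearly level, and the untransduced cells stood above the rest (-0.20 ± 0.11, adjusted p = 0.491). The remaining H/ACA proteins were *Nhp2*, with a fold change of 0.11, and *Gar1*, with -0.19. In neither did the groups separate.

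Of the box C/D proteins, *Fbl* (fibrillarin), the methyltransferase, was at 10.14 and 10.23 in knockdown lines H3 and H4, compared with 10.26 in H5, 10.12 in scrambled and 10.55 in untransduced cells. The untransduced cells were again the highest line, and the other controls bracketed the knockdown lines (-0.12 ± 0.14, adjusted p = 0.660). *Nop58*, a core scaffold protein, was at 9.19 (H3) and 9.66 (H4), against 9.50 (H5), 9.50 (scrambled) and 9.88 (untransduced), a log2 fold change of -0.20 ± 0.20, adjusted p = 0.607. H3 was the lowest line and H4 lay above 2 of the 3 controls. *Nop56*, its partner, had a fold change of -0.12.

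The probe set read for *Fbl* deserves a remark, since probe set numbers on this array run along the genome. Of its 10 nearest probe sets, 8 were for genes on chromosome 17, whereas *Fbl* is on chromosome 7. A second *Fbl* probe set, whose neighbours were on chromosome 7, read 9.98 in H3 and 10.02 in H4, and in the controls 10.14 in H5, 9.97 with the scrambled hairpin and 10.22 without transduction, and gave a fold change of -0.11. *Wdr12* was in the same position: the probe set used had 10 of 10 neighbours on chromosome 7 and the gene is on chromosome 1. Its other probe set gave -0.11 where the one used gave -0.08. The order of the lines was the same on both probe sets of *Wdr12*.

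Nucleolar scaffold proteins and regulators showed no separation either, with 0 of 6 past the test, 0 of 6 beyond the controls and a median of -0.04. *Ncl* (nucleolin), the abundant RNA-binding protein of the nucleolus, was at 11.22 and 11.49 in knockdown lines H3 and H4, compared with 11.33 in H5, 11.44 in scrambled and 11.54 in untransduced cells (-0.08 ± 0.11, adjusted p = 0.699). *Npm1* (nucleophosmin), the scaffold of the granular component, was at 10.66 (H3) and 10.97 (H4), against 10.60 (H5), 10.80 (scrambled) and 10.69 (untransduced), a log2 fold change of 0.12 ± 0.12, adjusted p = 0.603. In both genes the 2 knockdown lines fell on opposite sides of the control mean, H3 below and H4 above.

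*Ddx21*, an RNA helicase of ribosomal RNA transcription and processing, was at 10.42 in H3 and 10.54 in H4, and in the controls at 10.56 in H5, 10.34 with the scrambled hairpin and 10.90 without transduction (-0.12 ± 0.18, adjusted p = 0.727). Here the spread came mostly from within the controls, whose range of 10.34 to 10.90 enclosed both knockdown lines. *Nolc1*, a chaperone of snoRNPs (-0.04), *Mybbp1a*, a nucleolar transcription regulator (-0.03), and *Gnl3*, the GTPase nucleostemin (0.07), completed the group.

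Among the RNA polymerase I subunits was *Polr1c*, which RNA polymerase III also contains. It was the 1 gene of the 37 called higher at the unadjusted threshold. It had log2 expression of 10.53 and 10.71 in knockdown lines H3 and H4, compared with 10.34 in H5, 10.44 in scrambled and 10.31 in untransduced cells. H4 was highest and H3 next, and the groups did not overlap (0.26 ± 0.08 SE, adjusted p = 0.353). The unadjusted p was 0.0994 after subtracting array medians, 0.106 without H4, 0.0802 without H5 and 0.0754 without untransduced cells, so the call was lost when any 1 of those 3 lines was left out.

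The other subunits did not separate by group. *Polr1a*, the catalytic subunit, varied least of the 4 over the 5 lines, at 10.11 (H3) and 10.15 (H4), against 10.14 (H5), 10.13 (scrambled) and 10.22 (untransduced). The knockdown lines lay on either side of H5 and the scrambled line (-0.04 ± 0.05, adjusted p = 0.712). *Polr1b*, its catalytic partner, was at 11.01 in H3 and 11.16 in H4, and in the controls at 11.15 in H5, 11.00 with the scrambled hairpin and 11.35 without transduction (-0.08 ± 0.12, adjusted p = 0.731). *Polr1e* had a fold change of -0.01.

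Small subunit factors had the most negative median of the 5 role groups, at -0.20, and held the 1 gene called lower at the unadjusted threshold. *Imp4*, a protein of the U3 snoRNP that starts the assembly of the small subunit, was at 10.09 and 10.42 in knockdown lines H3 and H4, compared with 10.66 in H5, 10.53 in scrambled and 10.80 in untransduced cells. Both knockdown lines lay below all controls, H3 by the wider margin (-0.41 ± 0.13 SE, adjusted p = 0.366), a 1.33-fold lower value. Without H3 the fold change was -0.25 with an unadjusted p of 0.163. Without H5 and without untransduced cells the unadjusted p was 0.0838 and 0.0845 in turn.

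*Utp20*, a large scaffold of the small subunit processome, was at 8.69 (H3) and 8.91 (H4), against 9.12 (H5), 8.74 (scrambled) and 9.45 (untransduced), a log2 fold change of -0.31 ± 0.23, adjusted p = 0.520. The scrambled line lay between the 2 knockdown lines. *Tsr1*, a late assembly factor related to GTPases, was at 9.96 in H3 and 10.16 in H4, and in the controls at 10.41 in H5, 10.16 with the scrambled hairpin and 10.49 without transduction (-0.29 ± 0.12, adjusted p = 0.458). H4 and the scrambled line had the same value. *Noc4l*, which works with *Nop14* in the nucleolus, was at 9.35 and 9.40 in knockdown lines H3 and H4, compared with 9.54 in H5, 9.47 in scrambled and 9.67 in untransduced cells, with both knockdown lines below all controls (-0.18 ± 0.07, adjusted p = 0.436).

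Of the other 8 small subunit genes, *Ltv1*, *Wdr75*, *Wdr43* and *Rrp12* had fold changes between -0.25 and -0.20, *Rrp9* had -0.07 and *Nop14* -0.01. *Utp14a* was the most positive of the group, at 8.22 (H3) and 8.63 (H4), against 8.09 (H5), 8.02 (scrambled) and 8.33 (untransduced), a log2 fold change of 0.28 ± 0.16, adjusted p = 0.491. Only H4 lay above all controls. *Rcl1* had 0.11.

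Of the large subunit factors, 0 of 8 passed the test and 0 of 8 lay beyond the controls, with a median of -0.11. *Noc3l*, a nucleolar protein of large subunit assembly, was at 8.93 in H3 and 9.34 in H4, and in the controls at 9.36 in H5, 9.20 with the scrambled hairpin and 9.59 without transduction (-0.25 ± 0.18, adjusted p = 0.510). *Nip7*, listed here with the large subunit factors, was at 8.12 and 8.50 in knockdown lines H3 and H4. It was at 8.57 in H5, 8.40 in scrambled and 8.48 in untransduced cells (-0.18 ± 0.13, adjusted p = 0.519). In both, H3 was the lowest line and H4 lay within the control range.

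*Bop1*, which forms the PeBoW complex with *Pes1* and *Wdr12*, was at 9.73 (H3) and 9.69 (H4), against 9.78 (H5), 9.66 (scrambled) and 10.15 (untransduced), a log2 fold change of -0.15 ± 0.16, adjusted p = 0.620. Its 2 partners had fold changes of -0.06 for *Pes1* and -0.08 for *Wdr12*. The untransduced cells were the highest line for all 3. *Nop2* (-0.14), *Ebna1bp2* (-0.09) and *Nop16* (0.01) made up the rest of the group.

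A regular pattern in the 37 genes lay between lines of the same group. Untransduced cells had the highest value of the 5 lines for 28 of the 37 genes (75.7%, against 19.7% of all genes and 36.3% of the genes of the same level). They lay above both selected control lines for 31 of the 37 (83.8%, against 31.8% of all genes and 45.4% of the genes of the same level). The median difference between untransduced cells and the mean of H5 and the scrambled line was 0.28 over the 37 genes, and 0.00 over all genes. After another quantile normalization they lay above both for 31 of the 37 as well, with a median difference of 0.24. Untransduced cells were 1 array, so line, lentiviral transduction, puromycin selection and array cannot be told apart. As the genes were described together and are not independent, these counts carry no test.

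The fold changes moved with the choice of control line. Set against the mean of the 3 controls, the 37 genes had a median of -0.17 in H3 and -0.04 in H4, and among the controls it was -0.04 in H5, -0.14 in the scrambled line and 0.19 in untransduced cells. Thus the scrambled line lay closer to H3 than to untransduced cells, and H4 and H5 were level. H4 was above the scrambled line for 32 of the 37 genes (median difference 0.16) and H3 for 17. Among the 6595 genes of the same level, H4 was above the scrambled line for 3308 and H3 for 2318. When untransduced cells were left out, the median fold change was 0.01 in place of -0.09, and when the scrambled line was left out it was -0.21. Without the scrambled line 4 genes were lower (*Imp4*, *Tsr1*, *Utp20* and *Noc4l*) and 2 higher (*Polr1c* and *Nop10*).

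**Figure D2:**
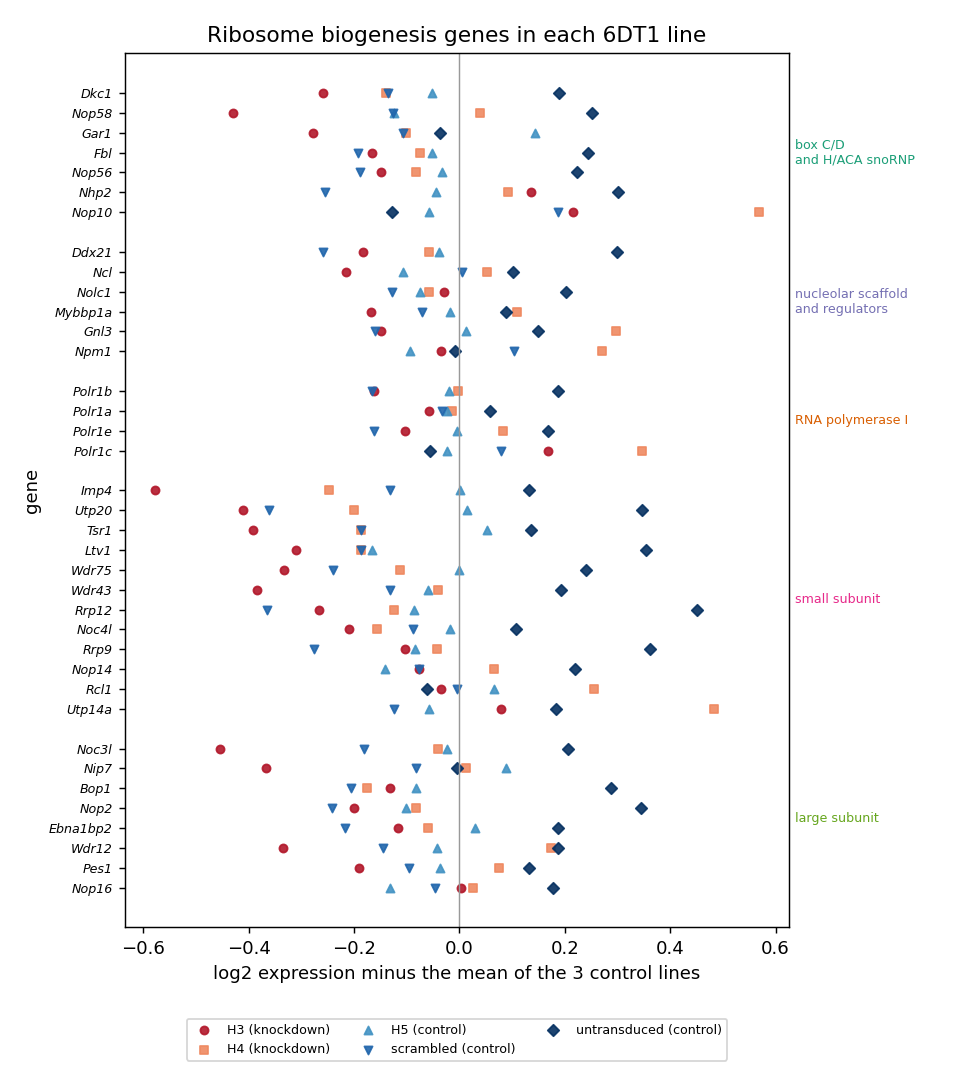
Log2 expression of each of the 37 genes in each line (1 array each) minus the mean of the 3 control lines, by role. Untransduced cells (dark diamonds) lie to the right for most genes and are the highest line for 28 of 37, and H3 (dark red circles) lies left of H4 (orange squares) for 34 of 37.

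The knockdown lines differed from each other in 1 direction as well. H3 was below H4 for 34 of the 37 genes (91.9%, against 36.7% of all genes and 62.4% of the genes of the same level), with a median difference of -0.18. The exceptions were *Nhp2*, *Bop1* and *Nolc1*. The widest gaps were in *Wdr12* (H4 higher by 0.51), *Nop58* (0.47) and *Gnl3* (0.45). The H3 array had the narrower spread of values given above: after quantile normalization, which removes that difference, H3 was below H4 for 29 of the 37 genes (78.4%, against 49.6% of the genes of the same level), with a median of -0.11. After subtracting array medians it was 37 of 37, but that scaling also raised the share to 79.8% of the genes of the same level and 63.7% of all genes.

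The order of the 2 knockdown lines was the reverse for replication and mitosis genes. All 17 of those measured (such as *Mki67*, *Ccna2* and the *Mcm* helicase genes) fell in the knockdown lines, with a median log2 fold change of -0.88. Measured from the control mean, their median was -0.46 (H3) and -1.18 (H4), and H4 was the lowest of the 5 lines for 17 of 17. H4 was the lowest line for 0 of the 37 ribosome biogenesis genes, against 20.9% of all genes (a tie counts for no line). In untransduced cells these genes had the pattern of the 37, since those cells were the highest line for 13 of the 17 genes (76.5%) too, with a median difference of 0.25 from the mean of H5 and the scrambled line. These 17 genes were chosen with their values on these arrays known, so they serve only as a scale.

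**Figure D3:**
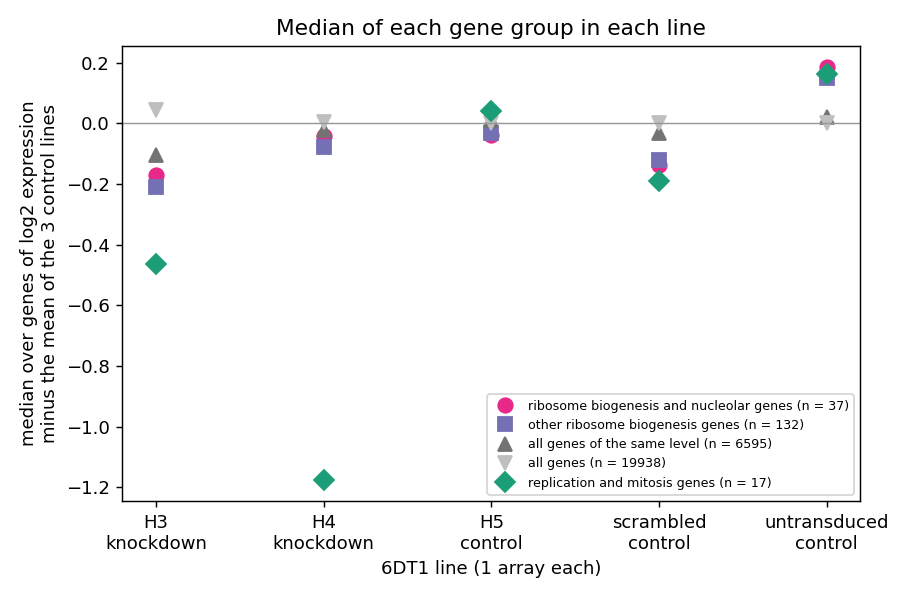
Median, over the genes of each group, of log2 expression minus the mean of the 3 control lines, in each 6DT1 line (1 array each). The 37 genes lie at -0.17 in H3, -0.04 in H4 and 0.19 in untransduced cells, while the 17 replication and mitosis genes lie at -0.46 in H3 and -1.18 in H4.

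**Figure D4:**
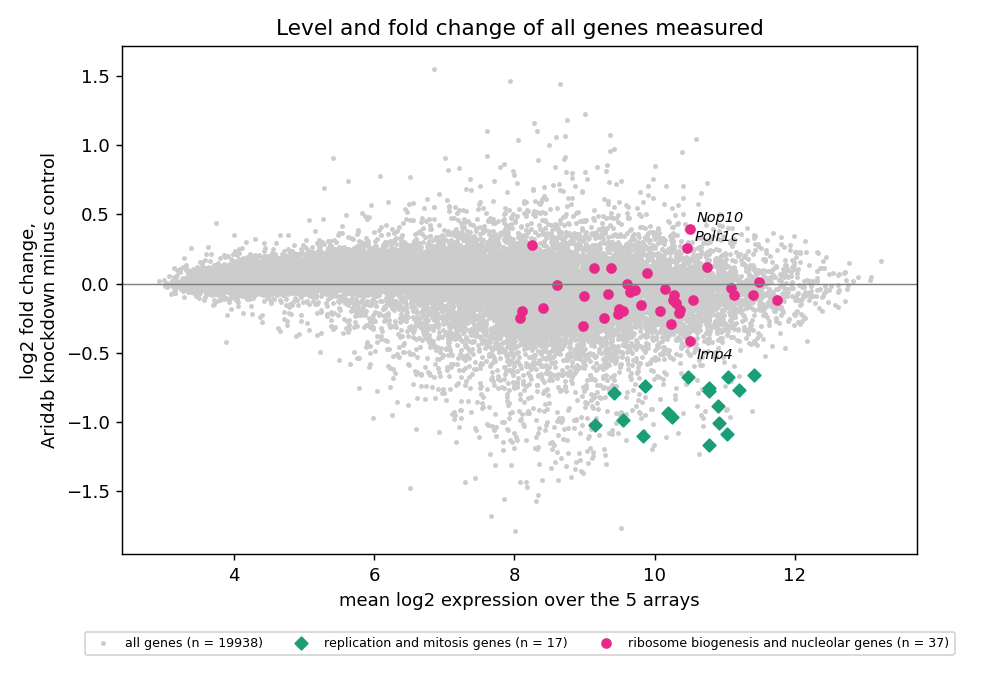
Log2 fold change (*Arid4b* knockdown minus control lines) against mean log2 expression over the 5 arrays for all 19938 genes (grey), the 37 ribosome biogenesis and nucleolar genes (pink) and the 17 replication and mitosis genes (green). The 37 genes lie between -0.41 and 0.39, and the 17 between -1.17 and -0.66.

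*Myc* itself was higher in the knockdown lines at the unadjusted threshold, and did not pass after adjustment. It was at 12.07 in H3 and 12.32 in H4, and in the controls at 11.80 in H5, 11.99 with the scrambled hairpin and 11.75 without transduction (0.35 ± 0.11 SE, adjusted p = 0.367). Both knockdown lines lay above all controls, with H4 highest and H3 close to the scrambled line. The E-box that MYC binds was counted in the promoters of the 37 genes, taken as 250 bases before and 50 bases after the RefSeq start in assembly GRCm38.p6, and 33 of the 37 had a promoter in that table (not *Fbl*, *Npm1*, *Rrp12* and *Bop1*). CACGTG, which reads the same on both strands, was present in 8 of the 33 (24.2%), against 8.1% of 27025 genes in the table and 9.5% of the 15614 of them measured here. Of 107 genes of the wider list described below that had a promoter there, 19.6% had it. The 8 of the 33 with the motif had a median fold change of -0.23 (range -0.41 to -0.03), and the 25 without it -0.08 (range -0.25 to 0.39). A match of letters is a description and not a binding site.

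The stretches around the motif are shown because they include the 4 most negative fold changes of the 37, those of *Imp4*, *Utp20*, *Tsr1* and *Ltv1*. Of these only *Imp4* passed the test, and *Noc3l*, without the motif, was nearly level with *Ltv1* (both -0.25). Each is written 5′ to 3′ on the strand of the gene, with the E-box in capitals, and those of *Utp20* and *Mybbp1a* stop where the promoter window ends.
Imp4 (chr1:34439696-34439725, plus strand): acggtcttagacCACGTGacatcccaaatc
Nop2 (chr6:125131811-125131840, plus strand): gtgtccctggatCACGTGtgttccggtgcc
Pes1 (chr11:3963965-3963994, plus strand): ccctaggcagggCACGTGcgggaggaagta
Wdr43 (chr17:71616220-71616249, plus strand): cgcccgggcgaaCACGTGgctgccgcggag
Tsr1 (chr11:74898092-74898121, plus strand): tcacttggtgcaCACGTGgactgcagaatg
Ltv1 (chr10:13193092-13193121, minus strand): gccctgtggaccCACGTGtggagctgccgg
Utp20 (chr10:88826765-88826789, minus strand): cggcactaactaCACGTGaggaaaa
Mybbp1a (chr11:72441355-72441376, plus strand): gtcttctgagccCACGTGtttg
The motif began 121 bases before the start in *Imp4* and 60 before it in *Nop2*, and after the start in the other 6, between base 3 in *Pes1* and base 41 in *Mybbp1a*.

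Other promoter motifs were searched on both strands. The GC box GGGCGG was in 27 of the 33 promoters (81.8%, against 52.9% of the measured genes and 62.6% of the 107 genes of the wider list). The ETS motif CCGGAAG was in 11 (33.3%, against 13.6% and 47.7% in turn) and CCAAT in 13 (39.4%, against 41.7% and 36.4%). The promoters of the 2 genes that passed the test are shown, for the 250 bases before the start, with every match on either strand in capitals.
Imp4 (chr1:34439579-34439828, plus strand): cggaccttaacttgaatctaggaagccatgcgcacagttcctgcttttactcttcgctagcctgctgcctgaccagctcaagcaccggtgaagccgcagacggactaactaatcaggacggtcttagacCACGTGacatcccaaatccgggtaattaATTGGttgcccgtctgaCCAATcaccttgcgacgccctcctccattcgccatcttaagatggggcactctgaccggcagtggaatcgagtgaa
Polr1c (chr17:46248046-46248295, minus strand): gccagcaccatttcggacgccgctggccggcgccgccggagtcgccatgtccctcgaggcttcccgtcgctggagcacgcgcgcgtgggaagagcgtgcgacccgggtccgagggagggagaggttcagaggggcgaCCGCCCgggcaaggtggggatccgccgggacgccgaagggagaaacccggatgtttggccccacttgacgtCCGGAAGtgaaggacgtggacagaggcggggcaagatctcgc
In these bases *Imp4* had 1 E-box and 2 CCAAT boxes and neither of the other motifs. *Polr1c* had 1 GC box and 1 ETS motif and neither an E-box nor CCAAT. With 1 gene called in each direction, any link between motif and fold change was not tested.

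Many snoRNAs are made from the introns of genes of this pathway. The RefSeq annotation placed 19 snoRNAs inside 7 of the 37 genes. Of the 19, 4 had a probe set with 1 gene symbol, and 0 of those 4 passed the test. Whether these probe sets read the mature snoRNA or the RNA of the host gene was not tested. *Snord57*, inside *Nop56*, was at 10.33 and 10.64 in knockdown lines H3 and H4, compared with 10.01 in H5, 10.00 in scrambled and 10.34 in untransduced cells (0.36 ± 0.15, adjusted p = 0.452). Its fold change was positive where that of its host gene was -0.12. *Snora75*, inside *Ncl*, lay below the array median in H3, H4 and the scrambled line and above it in H5 and untransduced cells, at 5.68 (H3) and 5.76 (H4), against 6.31 (H5), 5.61 (scrambled) and 6.71 (untransduced), a log2 fold change of -0.49 ± 0.34. *Snord82*, also in *Ncl*, had 0.08 and *Snord53*, in *Wdr43*, had 0.04.

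A wider list of 132 further ribosome biogenesis genes gave 10 lower (7.58%, against 7.61% of all genes) and 4 higher (3.03%, against 4.34%), with 0 past the adjusted threshold and a median of -0.14. Leaving out H5 gave 5 lower and 1 higher, against 3.89% and 2.05% of all genes. Without the scrambled line 29 were lower and 2 higher, against 8% and 3.52% of all genes. Without untransduced cells 4 were lower and 4 higher, against 5.07% and 2.55%. Both knockdown lines lay below all controls for 34 of them (25.8%, against 13.5% of all genes) and above for 6 (4.55%, against 13.9%). Here too the shares were not set against genes of the same level. By role the exosome and the nucleases of ribosomal RNA processing had more calls than any other role. Of these 17 genes 5 were lower and 2 higher, against 7.61% and 4.34% of all genes, with a median of -0.29. This role was picked out for its calls, and it was not counted separately with lines left out. *Exosc8*, a subunit of the RNA exosome ring, was at 9.83 in H3 and 9.79 in H4, and in the controls at 10.57 in H5, 10.58 with the scrambled hairpin and 10.68 without transduction (-0.80 ± 0.06 SE, adjusted p = 0.147). The groups were separated by a gap wider than the spread within either. *Rpp30*, a protein of RNase P and RNase MRP, was at 8.47 and 8.82 in knockdown lines H3 and H4, compared with 9.39 in H5, 9.28 in scrambled and 9.73 in untransduced cells (-0.82 ± 0.18, adjusted p = 0.292).

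Subunits of the exosome did not all move the same way. *Exosc5* was at 9.57 in H3 and 9.62 in H4, against 9.24 to 9.36 in the controls (0.29 ± 0.06, adjusted p = 0.285), and *Exosc4* rose by 0.27, whereas *Exosc3*, like *Exosc8*, was lower (-0.40). Outside this group *Tcof1* (treacle), a factor of RNA polymerase I transcription, was at 9.26 (H3) and 9.03 (H4), against 9.65 (H5), 9.43 (scrambled) and 9.82 (untransduced), a log2 fold change of -0.48 ± 0.14, adjusted p = 0.351. *Nol6*, of the small subunit processome, and *Nob1*, the nuclease that finishes the small subunit RNA, were higher by 0.26 and 0.20. The pattern among lines was shared by this list: untransduced cells were above both selected controls for 109 of the 132 (82.6%), and H3 was below H4 for 107 (81.1%).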

How the data were processed

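RNA of 5 lines of 6DT1 cells was hybridised to 1 array each. The deposited values are log2 expression values, which the authors normalized in Partek; the submitters' processing notes also name RMA, with no version given in the sources used here. Of 35556 probe sets, 21789 had 1 gene symbol, 1621 several and 12146 were unnamed here. Of those with 1 symbol, 21698 matched a RefSeq gene, and the probe set of highest mean was used for each of 19938 genes, 999 of which had several. Knockdown and control lines were fitted in R 4.3.3 by lmFit and eBayes of limma 3.58.1 (1.58 prior and 3 residual degrees of freedom), and p-values were adjusted over all genes by the method of Benjamini and Hochberg. The step was tested on simulated data. The genes and lists were chosen with earlier results of these data known. Values were given for genes past the unadjusted threshold, for the 3 largest fold changes of each role group, for *Ncl*, *Npm1*, *Fbl* and *Polr1a*, and for up to 4 genes in each direction of the wider list; other genes named were chosen after their values were seen. Of the 136 genes of the wider list, 132 were measured. The 13 alternatives included normalization, filtering, array weights and leaving out each line; 1, with probe sets placed among genes of their own chromosome, was added after seeing the data. Figures were drawn with matplotlib 3.10.9.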

Additional observations from a re-analysis of the deposited data

How the results depend on the processing

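Over the 37 genes and 13 alternatives, the sign of a fold change differed from that reported in 38 of 481 values, in 22 genes at least once, and no gene passed the unadjusted threshold in both directions. For the 37 genes, where 1 was lower and 1 higher, an unmoderated equal-variance test gave 0 lower and 0 higher, limma with trend and robust options gave 2 higher, subtracting array medians gave 2 lower and 0 higher, quantile normalization gave 3 higher, and leaving out the lowest 1 in 3 genes gave 2 higher. For the 132 further genes, where 10 were lower and 4 higher, the unmoderated test gave 4 and 1 and subtracted medians 17 and 2. Array weights gave 5 and 1, and quantile normalization 8 higher. The shares of all genes moved too. They were 4.19% lower and 2.94% higher in the unmoderated test, and 10.2% and 2.55% with subtracted medians. Quantile normalization gave 6.68% and 6.52%, and array weights 4.54% and 1.92%. Trend and robust options gave 7.37% and 4.28%, and leaving out the lowest 1 in 3 genes 11.3% and 4.54% of those kept. Leaving out each line in turn gave between 0 (without H3, H5 or untransduced cells) and 4 (without the scrambled line) of the 37 genes lower and between 0 and 3 (without H3) higher, and between 4 and 29 of the 132 lower and between 1 and 8 higher. In the fits without H3 or H4 the lone knockdown line is assumed to vary like the controls. *Imp4* lost its call in the unmoderated test (unadjusted p of 0.0793) and without H3, H5 or untransduced cells, and *Polr1c* in the unmoderated test (0.0565), with subtracted medians and without H4, H5 or untransduced cells. Subtracting medians moved the median of all genes to -0.01 (0.03 before). The causes were not tested. With 5 arrays, the number of arrays limits the precision. No paired analysis was possible because the labels give the lines no shared replicate numbers across the groups.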
